A study of Homo sapiens with 10 samples.

Results

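Proteasome genes were read in PC-3, an established line from a human prostate cancer, from 10 single-color Agilent Whole Human Genome arrays. Members were chosen by name, as the genes whose name in the scanner files begins with PSMA, PSMB, PSMC, PSMD, PSME, PSMF or PSMG and a digit, with 1 value per gene from its brightest probe. This gave 43 of the 28090 named genes on the array. They had 64 probes in all, and 16 of them had more than 1 probe. The arrays form 5 groups of 2, namely untreated cells at 0 h and cells harvested after 24 h with DMSO, the solvent of the drugs, with 60 µM luteolin, a plant flavonoid, with 60 µM gefitinib, an inhibitor of the EGF receptor kinase, or with 60 µM of each. All groups come from 1 cell line, and the labels call the pairs biological replicates without naming separate cultures, so p-values measure only the spread between these arrays, which may be technical.

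The proteasome is the protease that destroys proteins tagged with ubiquitin. Its core particle is a barrel of alpha and beta rings, and the active sites sit on 3 of the beta subunits. A regulatory particle caps the barrel. The base of the cap holds a ring of ATPases that unfold substrates and subunits that receive the ubiquitin chains, and the lid above it removes the chains. In a cell these parts are needed in fixed proportions, and their genes are known to be transcribed together, among others by NRF1 (gene NFE2L1), which raises them when proteasome activity is short. Other activators and an inhibitor bind the same barrel, and a separate set of beta subunits replaces the usual active sites in cells exposed to interferon.

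The treatment named in the scanner file differs from that of the label for the 6 drug-treated arrays. Files of arrays labelled luteolin carry the name of gefitinib, those labelled gefitinib carry the name of the combination, and those labelled luteolin plus gefitinib carry the name of luteolin. Groups are therefore called by their labels throughout, and every direction given for a drug holds for the arrays so labelled. The arrays lay on 3 slides, and the DMSO and luteolin-labelled arrays shared the same pair of slides. The 75th percentile of signal, to which each array was scaled, was 1177 to 1402 at 0 h, 1283 to 1350 with DMSO and 1041 to 1173 on the arrays labelled luteolin. It was 628.4 to 650.7 on those labelled gefitinib and 539.8 to 864.6 on those labelled luteolin plus gefitinib. Of the marker genes, the epithelial genes KRT8, KRT18, KRT19, EPCAM and CDH1 were well above background on 10 of 10 arrays. PTPRC and DCN were so on 0 arrays and COL1A1 on 9. KLK3, TMPRSS2, CD3E and PECAM1 were well above background on 10 of 10 arrays, although the androgen-axis genes among them are known to be low in this line and the others mark other cell types. As log2 of signal over the 75th percentile, CD3E ran from -4.89 to -3.13 and PECAM1 from -4.48 to -2.01. On that scale KLK3 ran from 3.38 to 5.14 and TMPRSS2 from -0.40 to 1.20. Their part in the results below was not tested.

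Levels are given as log2 of the signal over the array's 75th percentile, and changes are differences of mean levels with their standard error, on the same scale. A gene was called at an adjusted p under 0.05, from a limma model of the 5 groups with Benjamini-Hochberg adjustment over all probes kept. Levels of different genes come from different probes and were not compared. Of the 43 members, 42 passed the filter on dim probes, and each of these was well above background on 10 of 10 arrays. The exception was PSMA8, the alpha subunit of testis, which was well above background on 0 arrays. The members kept were 7 alpha and 7 beta subunits of the core, 2 interferon-inducible beta subunits, 6 ATPases and 3 other subunits of the base. The others were 8 lid subunits, 3 chaperones that assemble the base, 4 activators, 1 inhibitor and PSMC3IP. PSMC3IP is a meiotic recombination protein that the name rule found and is not a proteasome subunit. The alpha, beta, base and lid genes, 31 in all, are called constitutive subunits below. Replicate arrays lay close together for these genes, with a median SD (n = 2 arrays) over the members of 0.0577 with DMSO, 0.0545 with the luteolin label, 0.101 with the gefitinib label and 0.182 with the label of both. In RNA from a whole culture, fewer cells of a type and less RNA per cell cannot be told apart.

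On the arrays labelled luteolin, proteasome genes lay below DMSO as a group. Of the 42 members, 18 fell and 0 rose, where 11.8% of the 19718 genes kept fell and 14.3% rose. The median change was -0.56 over the members and 0.08 over all genes kept. All 31 constitutive subunits had an estimate at or below 0, from -1.15 for PSMD2 to 0.00 for PSMD8, and 16 of them were called. The alpha ring fell in 5 of 7 genes with a median of -0.62, the beta ring in 1 of 7 with a median of -0.40, the base ATPases in 3 of 6 with a median of -0.62, the other base subunits in 2 of 3 with a median of -0.59, and the lid in 5 of 8 with a median of -0.57. By array, the median over constitutive subunits relative to the DMSO mean was -0.51 and -0.57 on the pair labelled luteolin, and the same median was 0.01 and -0.01 on the DMSO pair. Within slides, the luteolin array minus the DMSO array gave a member median of -0.50 on slide 1 and -0.55 on slide 2. The count of calls depended on single arrays while the median did not. Without either DMSO array or either luteolin array, fewer members were called lower, and fewer of all genes kept were too. The member median then ran from -0.57 to -0.49.

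**Figure D1:**
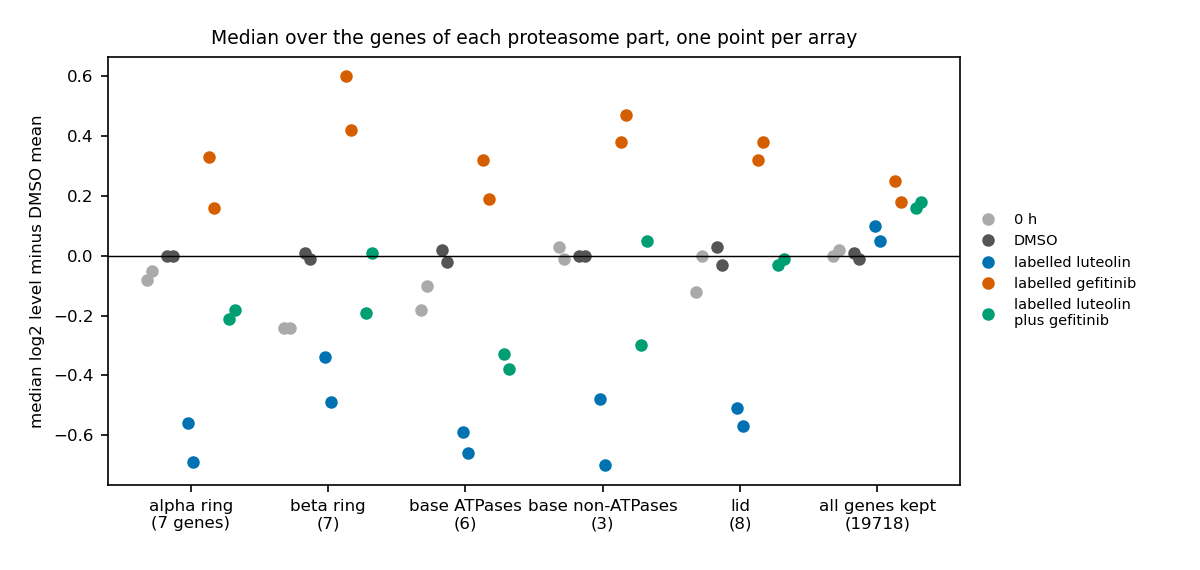
Median log2 level of the genes in each part of the proteasome minus their DMSO mean, 1 point per array, by label, beside the same median over all genes kept. The luteolin-labelled arrays lie below 0 in each part, between -0.70 and -0.34, the gefitinib-labelled arrays lie above 0 at this scaling (their median over constitutive subunits is -0.23 under quantile normalization), and all genes kept lie between -0.01 and 0.25.

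The steepest of these falls was PSMD2, the scaffold subunit of the base (NM_002808, probe at chr3:185506264-185506323 on hg18). Its level was 2.73 and 2.82 with DMSO, 1.55 and 1.70 with the luteolin label, 3.15 and 3.24 with the gefitinib label, 2.41 and 3.24 with the label of both, and 2.47 and 2.88 at 0 h. The arrays labelled luteolin stood below every other array, a 2.22-fold lower level than DMSO (-1.15 ± 0.27, adjusted p = 0.0164, limma). PSMA4, a subunit of the alpha ring (NM_002789, chr15:76625033-76625092 on hg18), had levels of 3.09 and 3.24 with DMSO and 2.15 and 2.17 with the luteolin label. The pairs were 2.69 and 3.19 with the gefitinib label, 2.47 and 2.25 with the label of both, and 2.90 and 3.08 at 0 h. It was 2.01-fold lower with the luteolin label (-1.01 ± 0.20, adjusted p = 0.00865, limma), and it was also lower with the label of both (-0.80 ± 0.20, adjusted p = 0.0151, limma), whose arrays did not overlap with DMSO either. PSMC3IP fell at least 2-fold as well and is described with the genes outside the particle. These 3 of 42 members passed a 2-fold limit downward, where 6.19% of all genes kept did, and 0 passed it upward, where 7.21% did.

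PSMD14, the lid enzyme that cuts ubiquitin chains from substrates (NM_005805, chr2:161973673-161973732 on hg18), was at 4.14 and 4.03 with DMSO and at 3.27 and 3.08 with the luteolin label. It was at 4.45 and 4.49 with the gefitinib label, at 3.86 and 3.68 with the label of both, and at 3.96 and 4.06 at 0 h. Its change with the luteolin label was -0.91 ± 0.16 (adjusted p = 0.0047, limma), and the pair lay below all other arrays. PSMC3, an ATPase of the base (NM_002804, chr11:47401010-47401069 on hg18), was at 2.69 and 2.67 with DMSO, at 1.82 and 1.72 with the luteolin label and at 1.94 and 2.12 with the label of both. It was at 3.41 and 3.06 with the gefitinib label and at 2.54 and 2.58 at 0 h. PSMC3 was lowest on 4 arrays, those labelled luteolin (-0.92 ± 0.17, adjusted p = 0.00662, limma) and those labelled luteolin plus gefitinib (-0.65 ± 0.17, adjusted p = 0.0179). Other falls with the luteolin label were PSMD12 (-0.88) and PSMD11 (-0.59) of the lid, PSMA3 (-0.83) and PSMA2 (-0.67) of the alpha ring, and the ATPases PSMC5 (-0.71) and PSMC1 (-0.68).

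The beta ring had the median closest to 0 of these classes with the luteolin label. PSMB5, which carries the chymotrypsin-like active site, was at 4.74 and 4.80 with DMSO, 4.61 and 4.61 with the luteolin label, 4.87 and 4.80 with the gefitinib label, 4.50 and 4.77 with the label of both, and 4.55 and 4.41 at 0 h. None of its changes against DMSO passed at this scaling (luteolin label -0.16 ± 0.16, adjusted p = 0.50, limma). Quantile normalization gave called falls of PSMB5, of -0.63 for the gefitinib label (adjusted p = 0.00786) and of -0.54 for the label of both (adjusted p = 0.018). PSMB6, with the caspase-like site, had -0.16 and PSMB7, with the trypsin-like site, had -0.40 with the luteolin label, and neither passed. PSMB2 (-0.58, adjusted p = 0.0271, limma) was the beta subunit that was called. PSMD4, the ubiquitin receptor of the base, was at 3.99 and 3.96 with DMSO and 3.85 and 3.79 with the luteolin label, with a change of -0.16 that did not pass. PSMD4 rose with the gefitinib label, whose arrays were at 4.83 and 4.90, and was at 4.05 and 4.03 with the label of both and 4.0 and 3.96 at 0 h.

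**Figure D2:**
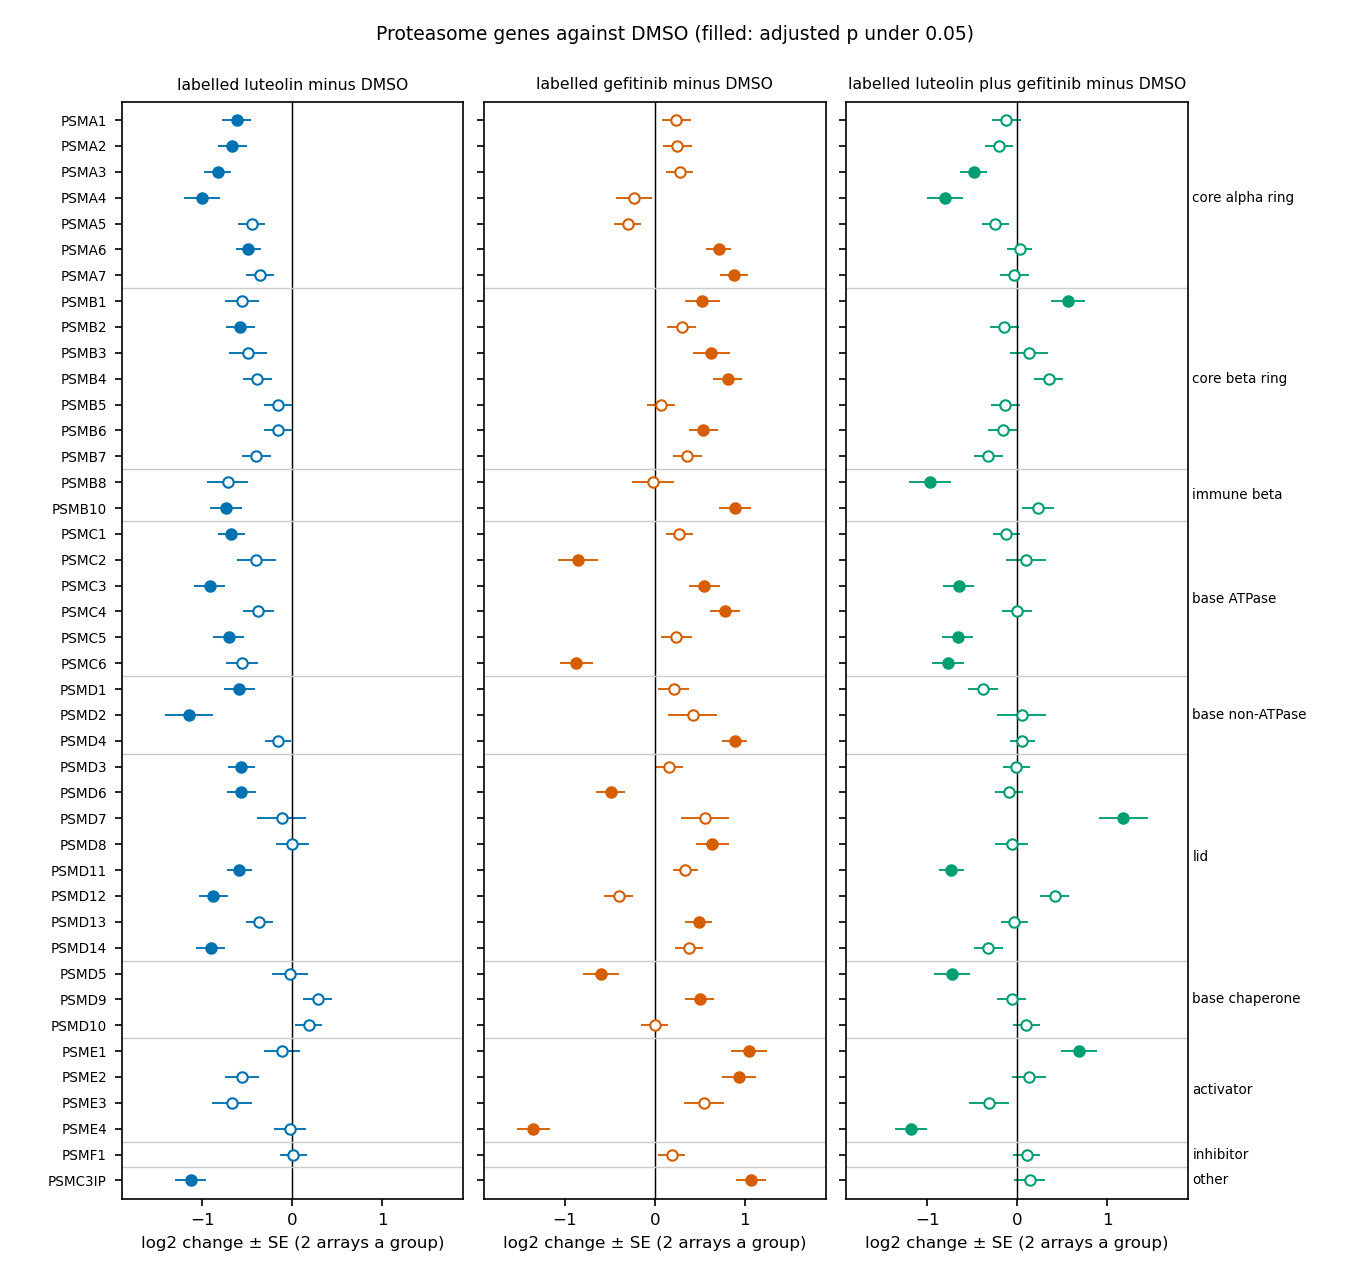
Log2 change of each of the 42 members against DMSO for each of the drug labels, with the standard error from the limma model as bars (2 arrays a group) and filled points where the adjusted p was under 0.05. With the luteolin label the 31 constitutive subunits lie at or left of 0, and with the other labels members lie on both sides.

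Further probes of the lowered genes gave negative changes with the luteolin label too, while the probes of PSMD8 gave 0.00 and 0.11 and those of PSMD9 0.28 and 0.50, none of them called. The 3 probes of PSMC1 gave -0.68, -0.66 and -0.71. PSMC6 and PSME3 were not among the lowered genes. The 4 probes of PSMC6 gave -0.56, -0.53, -0.57 and -0.56, none of them called, and those of PSME3 gave -0.67, -0.96 and -0.77. The brightest probe of PSME3 was not called (adjusted p = 0.0543, limma) while both of its other probes were, at adjusted p = 0.00554 and 0.0229. The 3 probes of PSMD12 gave -0.88, -0.85 and -0.45, and the last of these did not pass.

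The starts of these genes were read for a pair of motifs in promoter windows from RefSeq (build GRCh38.p14, 250 bases before to 50 after the start), found by symbol for 38 of the 43 members. The motifs were CCAAT, the site of NF-Y, and TGACNNNGC, the core of the antioxidant response element to which NRF1 and NRF2 bind with small Maf proteins, each on both strands. CCAAT was in 17 of 38 member windows (44.7%) and in 34.6% of the 35116 windows in the table, and TGACNNNGC was in 10 of 38 (26.3%) and in 13.3% of all. Among the 18 members lowered with the luteolin label, CCAAT was in 9 (50%) and TGACNNNGC in 3 (16.7%), and among the 19 other members kept with a window the counts were 8 (42.1%) and 7 (36.8%). A match is a run of letters and not a measured site. The 250 bases before the start are given 5′ to 3′ for 4 genes that fell with the luteolin label and for PSME4, which did not, with matches to either motif in capitals. PSMA3 (chr14:58244593-58244842, + strand) has 2 CCAAT matches and PSMC3 (chr11:47426440-47426689, - strand) has 1. In PSMD14 (chr2:161308175-161308424, + strand) 2 CCAAT matches on opposite strands overlap. PSMD12 (chr17:67366578-67366827, - strand) and PSME4 (chr2:53970994-53971243, - strand) have 1 match to TGACNNNGC each.
PSMA3: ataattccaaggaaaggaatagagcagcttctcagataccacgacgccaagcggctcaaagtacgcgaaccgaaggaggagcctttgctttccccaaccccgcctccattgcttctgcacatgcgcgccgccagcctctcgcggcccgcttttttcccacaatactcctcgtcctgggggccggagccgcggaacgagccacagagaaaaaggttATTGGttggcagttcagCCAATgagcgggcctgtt
PSMC3: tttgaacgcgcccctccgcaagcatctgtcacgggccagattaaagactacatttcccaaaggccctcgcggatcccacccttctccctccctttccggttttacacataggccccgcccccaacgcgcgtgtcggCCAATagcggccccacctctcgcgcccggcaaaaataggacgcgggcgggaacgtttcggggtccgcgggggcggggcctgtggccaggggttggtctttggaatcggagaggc
PSMD14: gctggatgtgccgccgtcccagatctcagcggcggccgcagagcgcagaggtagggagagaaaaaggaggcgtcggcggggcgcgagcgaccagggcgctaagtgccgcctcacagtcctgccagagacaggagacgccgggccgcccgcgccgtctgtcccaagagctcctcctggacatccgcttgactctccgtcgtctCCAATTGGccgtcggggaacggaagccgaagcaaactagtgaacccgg
PSMD12: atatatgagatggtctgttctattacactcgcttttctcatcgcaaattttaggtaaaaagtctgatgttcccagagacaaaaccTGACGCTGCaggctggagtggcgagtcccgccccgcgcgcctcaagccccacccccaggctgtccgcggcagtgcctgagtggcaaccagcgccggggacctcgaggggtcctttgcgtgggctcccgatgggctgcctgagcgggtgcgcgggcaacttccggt
PSME4: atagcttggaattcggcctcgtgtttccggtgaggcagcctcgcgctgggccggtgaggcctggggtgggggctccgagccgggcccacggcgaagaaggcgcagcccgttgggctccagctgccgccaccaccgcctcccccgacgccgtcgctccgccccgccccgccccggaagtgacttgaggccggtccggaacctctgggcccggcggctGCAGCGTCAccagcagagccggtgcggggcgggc

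On the arrays labelled gefitinib the members went both ways, and the direction of the group rested on the scaling. At the 75th percentile scaling, 16 of 42 members rose, where 32.8% of all genes kept rose, and 5 fell, where 22.3% fell. The member median was 0.35 and that of all genes kept 0.22. Under quantile normalization 3 members rose and 10 fell, where 23.3% of all genes rose and 24.4% fell. The median of the constitutive subunits moved from 0.34 to -0.23 and that of all genes kept from 0.22 to 0.04. A rise of the proteasome genes as a group with this label was therefore not held under both scalings. Of the members called, 3 rose under both, namely PSMC3IP, PSMB10 and the ATPase PSMC4 (0.78 and 0.41), and 5 fell under both. Those were the ATPases PSMC6 (-0.87, adjusted p = 0.00542, limma) and PSMC2 (-0.85, adjusted p = 0.013), the lid subunit PSMD6 (-0.49), the chaperone PSMD5 and the activator PSME4. The 4 probes of PSMC6 gave -0.87, -0.78, -1.04 and -0.92, each called. Without either DMSO array or gefitinib replicate 1, fewer members were raised, and fewer of all genes kept were too. Fewer were lowered without any 1 of the DMSO or gefitinib arrays, again with fewer of all genes. Member medians then ran from 0.34 to 0.37.

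**Figure D3:**
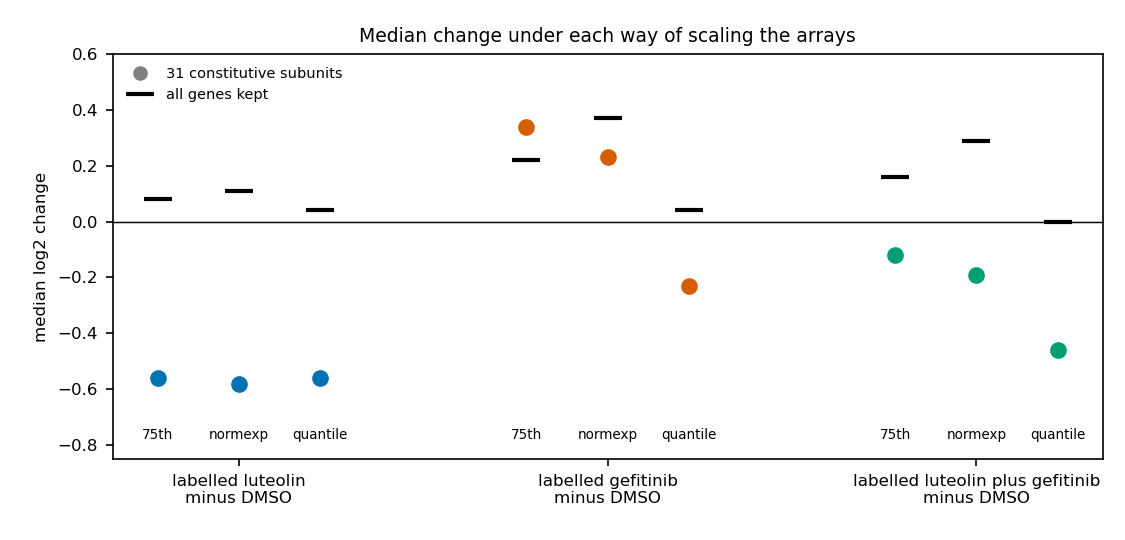
Median log2 change against DMSO of the 31 constitutive subunits (points) and of all genes kept (bars) under the 75th percentile scaling, normexp background correction and quantile normalization. The subunit median stays between -0.58 and -0.56 with the luteolin label and goes from 0.34 to -0.23 with the gefitinib label.

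The core subunits PSMA7 and PSMB4 show what the scaling does. PSMA7 (NM_002792, chr20:60149323-60149382 on hg18) was at 4.75 and 4.84 with DMSO, 4.41 and 4.45 with the luteolin label, 5.65 and 5.69 with the gefitinib label, 4.61 and 4.93 with the label of both, and 4.69 and 4.77 at 0 h. PSMB4 (NM_002796, chr1:149640954-149641013 on hg18) was at 4.98 and 5.01 with DMSO, 4.63 and 4.58 with the luteolin label, 5.81 and 5.81 with the gefitinib label, 5.17 and 5.52 with the label of both, and 5.02 and 5.04 at 0 h. Both lay highest on the arrays labelled gefitinib, by 0.88 ± 0.16 (adjusted p = 0.00312, limma) for PSMA7 and 0.81 ± 0.16 (adjusted p = 0.00441) for PSMB4. Under quantile normalization the same changes were 0.09 and -0.01 and did not pass. PSMD4 went from 0.89 (adjusted p = 0.00176, limma) to 0.24 in the same way.

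With the label of both drugs, 3 members rose and 9 fell, where 25% of all genes kept rose and 16.3% fell. The member median was -0.07 and that of all genes 0.16. Under quantile normalization 1 member rose and 18 fell, the 9 among them, where 17.8% of all genes rose and 20.8% fell, and the median of the constitutive subunits was -0.46 in place of -0.12. The members that fell under both scalings were PSMA3, PSMA4, PSMB8, PSMC3, PSMC5 (-0.66), PSMC6 (-0.77), PSMD11 (-0.73), PSMD5 and PSME4. PSMD7, a structural subunit of the lid that pairs with PSMD14 (NM_002811, chr16:72897603-72897662 on hg18), was the member that rose under both. Its level was 3.59 and 3.70 with DMSO, 3.49 and 3.55 with the luteolin label, 4.33 and 4.07 with the gefitinib label, 4.40 and 5.25 with the label of both, and 3.40 and 3.72 at 0 h. It was 2.27-fold above DMSO with the label of both (1.18 ± 0.27, adjusted p = 0.0115, limma) and 0.81 above under quantile normalization. Without luteolin plus gefitinib replicate 1 the change was 1.61 and without replicate 2 of that label 0.75, both called, and the call was lost without DMSO replicate 1 (adjusted p = 0.0672) or 2 (adjusted p = 0.0552). PSMB1 (0.57) and PSME1 (0.69), called at the 75th percentile scaling, gave -0.06 and 0.12 under quantile normalization and did not pass. The arrays of this label were the least alike of the 5 groups. Fewer members were called without either DMSO array or without luteolin plus gefitinib replicate 2, and more without replicate 1 of that label. The share of all genes kept moved the same way, and member medians ran from -0.15 to -0.02. A 2-fold limit left 1 member raised and 1 lowered with this label, where 12.1% and 7.76% of all genes kept passed it, and 2 raised and 1 lowered with the gefitinib label, where 15.6% and 14.4% did.

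The activators split. PSME4, which encodes the single-chain nuclear activator that opens the core without ubiquitin (NM_014614, chr2:53946063-53946122 on hg18), was at 0.07 and 0.09 with DMSO, 0.06 and 0.14 at 0 h and -0.03 and 0.13 with the luteolin label. It was at -1.25 and -1.28 with the gefitinib label and at -0.87 and -1.32 with the label of both. The last 4 arrays lay below the other 6. PSME4 fell by 1.35 ± 0.18 with the gefitinib label (adjusted p = 0.000932, limma) and by 1.18 ± 0.18 with the label of both (adjusted p = 0.00271), and both falls passed under 19 alternatives of scaling, filter, block and left-out arrays, with values from -1.36 to -1.08 and from -1.40 to -0.95. They did not pass the methods' own test after adjustment (adjusted p = 0.208 and 0.385). Read by file name instead, the arrays low in PSME4 are those of the combination and of luteolin, and gefitinib gives -0.03. PSME1, a subunit of the interferon-inducible activator cap (NM_006263), went the other way. It was at 5.05 and 5.12 with DMSO, 4.96 and 5.14 at 0 h, 4.93 and 5.00 with the luteolin label, 6.17 and 6.10 with the gefitinib label, and 5.50 and 6.04 with the label of both. PSME1 was 2.07-fold higher with the gefitinib label (1.05 ± 0.20, adjusted p = 0.00359, limma) and its partner PSME2 gave 0.94, with quantile values of 0.24 and 0.10 that did not pass. PSME3, the nuclear cap related to them, was at 1.06 and 1.07 with DMSO, 0.57 and 0.23 with the luteolin label, 1.69 and 1.54 with the gefitinib label, 1.04 and 0.48 with the label of both, and 1.26 and 1.10 at 0 h, and none of its changes against DMSO passed on this probe, while both dimmer probes were called with the gefitinib label at the 75th percentile scaling (0.51 and 0.66) and 1 of them was called lower with the label of both (-0.68, adjusted p = 0.0158).

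The interferon-inducible beta subunits did not move alike. PSMB10, the replacement for the trypsin-like site (NM_002801), was at 2.64 and 2.79 with DMSO, 1.99 and 1.96 with the luteolin label, 3.67 and 3.55 with the gefitinib label, 2.74 and 3.15 with the label of both, and 2.96 and 3.08 at 0 h. It fell with the luteolin label (-0.74 ± 0.18, adjusted p = 0.0182, limma) and rose with the gefitinib label (0.89 ± 0.18, adjusted p = 0.00443), and both directions were held under quantile normalization, at -0.78 and 0.43. PSMB8, the replacement for the chymotrypsin-like site (NM_004159), was at 0.44 and 0.63 with DMSO, -0.14 and -0.22 with the luteolin label, 0.51 and 0.53 with the gefitinib label, -0.08 and -0.79 with the label of both, and 0.61 and 0.87 at 0 h. Its fall passed with the label of both (-0.97 ± 0.23, adjusted p = 0.0139, limma), and the change with the luteolin label was -0.72 (adjusted p = 0.0545).

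Among the assembly chaperones of the base, none fell with the luteolin label, and their estimates were -0.03 for PSMD5, 0.28 for PSMD9 and 0.18 for PSMD10. PSMD5 (NM_005047, chr9:122618821-122618880 on hg18) was at -0.42 and -0.12 with DMSO, -0.33 and -0.27 with the luteolin label, -1.01 and -0.74 with the gefitinib label, -0.81 and -1.17 with the label of both, and -0.42 and -0.20 at 0 h. It fell by 0.60 ± 0.20 with the gefitinib label (adjusted p = 0.0315, limma) and by 0.72 ± 0.20 with the label of both (adjusted p = 0.0217). Its dimmer probe gave -0.51 and -0.54 and was not called, and the calls of the brighter one were lost in 7 and 4 of 19 alternatives, at adjusted p up to 0.199 and 0.149. PSMD5 and PSME4 were low on the same 4 arrays. The chaperones of the core carry older names on the array, and the name rule missed them. PSMG1 was at 4.01 and 4.15 with DMSO, 3.47 and 3.31 with the luteolin label, 4.80 and 5.12 with the gefitinib label, 3.33 and 2.75 with the label of both, and 4.35 and 4.41 at 0 h. It fell by 1.04 with the label of both (adjusted p = 0.00849, limma) and by 1.25 there under quantile normalization. With the luteolin label it gave -0.69 (adjusted p = 0.0503), and with the gefitinib label 0.88, called at the 75th percentile scaling, and 0.23 under quantile normalization, which did not pass. PSMG2 fell with the label of both (-0.55), and PSMG3 was not called against DMSO. PSMF1, the inhibitor of the core, was at 1.39 and 1.57 with DMSO, 1.55 and 1.42 with the luteolin label, 1.60 and 1.74 with the gefitinib label, 1.64 and 1.53 with the label of both, and 1.59 and 1.67 at 0 h. Its arrays labelled luteolin or luteolin plus gefitinib overlapped with DMSO and no change of this probe passed, while its dimmer probe was called at the 75th percentile scaling with the gefitinib label (0.69) and with the label of both (0.50).

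PSMC3IP, the recombination protein caught by the name (NM_013290, chr17:37978242-37978301 on hg18), had the largest difference of the members between the luteolin and gefitinib labels (-2.20). It was at 0.32 and 0.34 with DMSO, -0.97 and -0.63 with the luteolin label, 1.49 and 1.32 with the gefitinib label, 0.36 and 0.58 with the label of both, and 0.65 and 0.53 at 0 h. The luteolin-labelled pair was lowest of all arrays and the gefitinib-labelled pair highest. Its changes of -1.13 ± 0.17 (adjusted p = 0.00319, limma) and 1.07 ± 0.17 (adjusted p = 0.00212) were -1.20 and 0.94 under quantile normalization, both called.

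**Figure D4:**
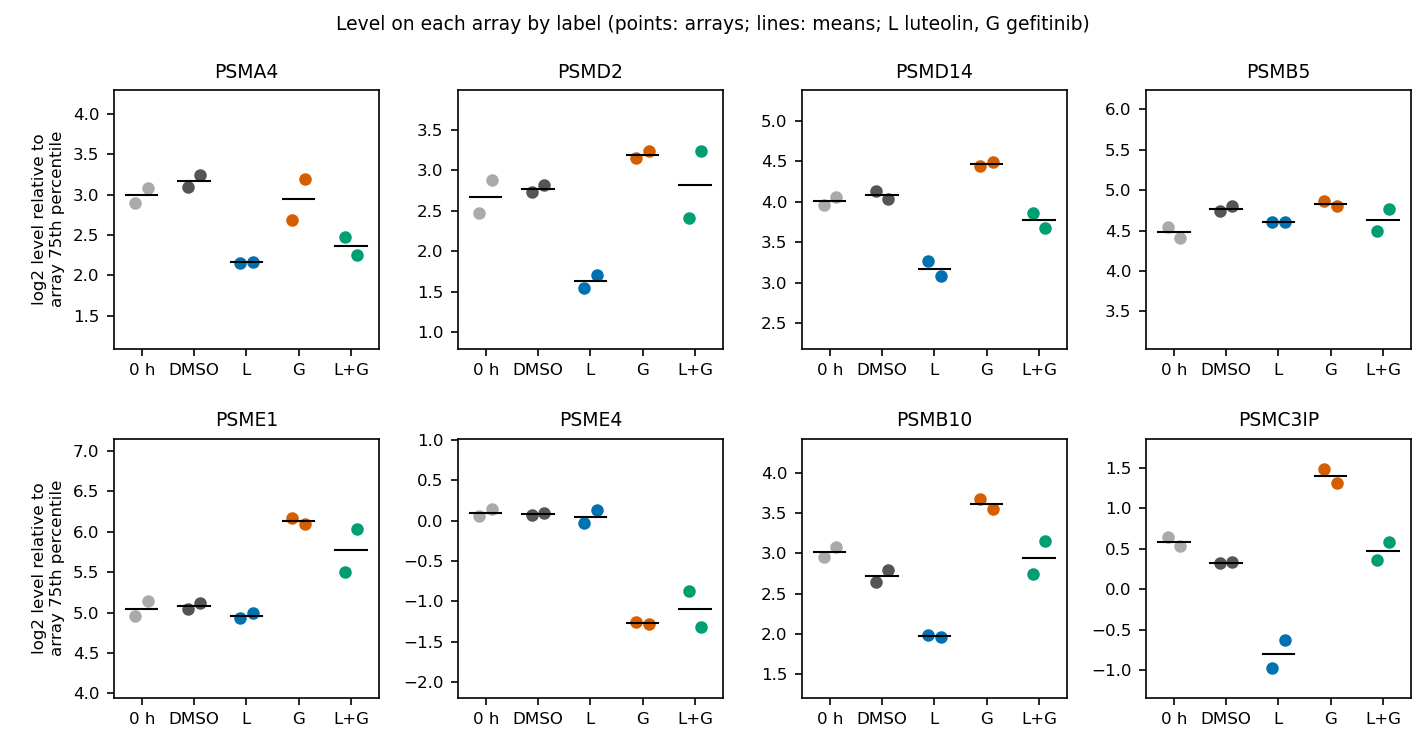
Level on each array (points) and group mean (line) of 8 members by label, as log2 of signal over the array's 75th percentile, with panels that span the same range. PSMA4, PSMD2 and PSMD14 are lowest with the luteolin label, PSME4 is low on the 4 arrays labelled gefitinib or luteolin plus gefitinib, and PSMB5 lies between 4.41 and 4.87 at this scaling, but is called lower with the gefitinib label under quantile normalization (-0.63).

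The drug labels were also compared with each other, and these comparisons share arrays with those against DMSO. With the luteolin label 31 of 42 members were lower than with the gefitinib label and 2 higher, where 33.1% and 27.3% of all genes kept were. The 2 were PSME4 (1.32) and PSMD5 (0.57). The member median was -0.87 and that of all genes -0.15, and under quantile normalization the counts were 17 lower and 6 higher with a median of -0.32. With the label of both, 17 members were higher than with the luteolin label and 2 lower, where 23.5% and 18.4% of all genes were. The largest of these were the lid subunits PSMD7 and PSMD12 (1.31 each), PSMC3IP (1.27) and PSMD2 (1.20), and the 2 lower ones were PSME4 (-1.15) and PSMD5 (-0.69). Fewer members differed when either luteolin array was left out, and the share of all genes in those fits was not computed. Against the gefitinib label, the label of both had 24 members lower and 2 higher, where 22.9% and 24.5% of all genes were. PSMC3 (-1.20) and PSMD11 (-1.06) led the lower ones, and PSMC2 (0.95) and PSMD12 (0.82) were the higher ones. Quantile normalization left 7 higher and 4 lower in the comparison with the luteolin label, and 4 higher and 11 lower in that with the gefitinib label. The shares of all genes under quantile normalization were not computed for the comparisons between labels, so these counts have nothing to be set against.

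The change with the label of both was set against the sum of the changes with either label. A departure from that sum passed for 3 members upward, where 18% of all genes did, and for 2 downward, where 16.3% did. Upward were the lid subunits PSMD12 (1.70 ± 0.22, adjusted p = 0.00109, limma) and PSMD6 (0.98 ± 0.23, adjusted p = 0.0122) and the ATPase PSMC2 (1.35 ± 0.31, adjusted p = 0.0127). Each of these genes was below DMSO in estimate with either label and close to or above it with the label of both. For the brightest probe of PSMD12 the changes were -0.88, -0.40 and 0.42, while its dimmest probe gave -0.45, -0.40 and 0.00. Downward were PSMD9 (-0.84) and PSMD4 (-0.67), which did not pass under quantile normalization. The median over probes gave -0.78 for PSMD9, which passed, and -0.51 for PSMD4, which did not. These departures hold for the labels only, since under the treatments of the file names the same 5 genes gave -0.55 for PSMC2, 0.17 for PSMD6, 0.06 for PSMD12, 0.98 for PSMD4 and 0.27 for PSMD9.

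Between DMSO and 0 h no member was called, although some classes were shifted. By limma 0 of 42 were called, where 0.0254% of all genes kept rose and 0.0101% fell, and 0 members had an unadjusted p under 0.05. Changes ran from -0.30 for PSMB10 to 0.30 for PSMB2, with a median of 0.08 over the members and -0.02 over all genes. Of the 31 constitutive subunits, 25 had an estimate above 0. The beta ring, with a median of 0.27, lay at -0.24 on both 0 h arrays and at 0.01 and -0.01 on the DMSO arrays, relative to the DMSO mean. With 2 arrays per group the absence of calls does not show that the genes were unchanged.

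Outside the name rule, 26 genes that work with the proteasome were read from the same fit. With the luteolin label 1 of them rose (3.85%, against 14.3% of all genes kept) and 3 fell (11.5%, against 11.8%). The riser was NFE2L1, the NRF1 gene (0.80 ± 0.18, adjusted p = 0.0128, limma, and 0.87 under quantile normalization). The genes that fell were UCHL5, a ubiquitin hydrolase bound to the base (-0.77), UBE3C, a ligase on the particle (-0.65), and UBQLN1, a shuttle for ubiquitinated proteins (-0.57), and each fell under quantile normalization too. With the gefitinib label 10 rose (38.5%, against 32.8%) and 5 fell (19.2%, against 22.3%), and under quantile normalization 1 rose and 5 fell. The ubiquitin genes UBB and RPS27A were called at 0.75 and 0.84 at the 75th percentile scaling, and gave -0.22 and -0.09 under quantile normalization, where neither was called. UBQLN2 (-1.25) and VCP, the ATPase that extracts proteins for the proteasome (-0.85), were among the 5 that fell under both scalings. DDI2, the protease that activates NRF1, was another of them. It gave -1.27 at the 75th percentile scaling but 0.12 with normexp background correction. With the label of both 5 rose and 5 fell (19.2% each, against 25% and 16.3%), among them ADRM1, a ubiquitin receptor of the base (0.72), ECPAS, an adaptor of the particle (-1.01), and NGLY1, which removes sugars from NRF1 (-0.94), whose calls held under quantile normalization.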

How the data were processed

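The authors extracted total RNA, labelled it with Cy3 and deposited the intensity of each spot as Agilent Feature Extraction wrote it (version 10.7.3.1 per the file headers), with background and spatial trend subtracted. Arrays were not normalized to each other. The deposited series table holds the same intensity, equal for 45015 spots per array. Control and outlier spots were left out, log2 signals were averaged per probe and the 75th percentile of the array was subtracted. Probes well above background on both arrays of a group were kept, 28776 of 41000. A limma 3.58.1 model (R 4.3.3) of the 5 groups was fitted to 10 arrays (residual degrees of freedom 5, prior 3.36). Probe coordinates are those of the files (hg18). Per-array levels are given for members changed at least 2-fold, the member with the smallest p of each class and members with a defined role. The members, gene lists and tests were chosen with earlier results of these data known. One gene that the name pattern matches, and some genes of the marker and pathway lists, are not reported here. The fit was tested on simulated arrays. Alternatives tried were normexp background correction (offset 50), quantile normalization, other filters on dim probes, the value table, blocks by replicate number or by slide, a fit of only the groups compared, the treatments of the file names, a 2-fold limit, 0 h as reference, the median over probes, the methods' 1-sample t-test and leaving out each array. The value table repeats the main fit, and leaving out either 0 h array gives the same fit. Alternatives counted together are therefore not all distinct.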

Additional observations from a re-analysis of the deposited data

Results flagged for a closer look

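For 5 of 42 members the change with the label of both drugs differed from the sum of the changes with either label, in the limma test of that difference. Upward departures passed for 7.14% of the members and 18% of all genes kept, and downward ones for 4.76% and 16.3%. The departures were 1.70 for PSMD12, 1.35 for PSMC2 and 0.98 for PSMD6 above the sum, and -0.84 for PSMD9 and -0.67 for PSMD4 below it, on the log2 scale. PSMD12 passed in each limma fit tried except that with the treatments of the file names, where it gave 0.06. PSMC2 and PSMD6 missed the threshold with those treatments and also without DMSO replicate 1, at adjusted p = 0.0542 and 0.0577. PSMD4 and PSMD9 were not called in 12 and 6 of 19 limma alternatives apart from the file names, at adjusted p up to 0.259 and 0.0945. These alternatives are not all distinct. The value table gave the main values again, and leaving out either 0 h array gave those of only the groups compared. A cause was not tested for any of the departures.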

How the results depend on the processing

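Members lowered with the luteolin label numbered 18 to 24 with normexp, quantile normalization, the slide block and the fit of only the groups compared. There 11.5% to 15.8% of all genes kept fell. Without a filter on dim probes 12 members were lowered, where 8.38% of all genes kept fell. The replicate numbers were not shown to pair the arrays, since the correlation of replicate differences between groups ran from -0.09 to 0.29. With the replicate block 19 members were lowered with the luteolin label, where 12.6% of all genes kept fell. That block gave 17 raised with the gefitinib label and 9 lowered with the label of both, where 34% rose and 17.2% fell. With 1 array left out at a time, its group keeps a single array, for which the spread of the other groups stands in. The share of all genes called against DMSO changed too, so the counts that follow are no result about the members. Counts then ran from 3 to 25 lowered with the luteolin label, 9 to 20 raised and 2 to 6 lowered with the gefitinib label, 0 to 6 raised and 1 to 10 lowered with the label of both, 29 to 34 for luteolin against gefitinib labels, 7 to 21 for both against luteolin, 18 to 26 for both against gefitinib and 1 to 10 for departures from the sum. Departures were 1 without DMSO replicate 1, 3 without DMSO replicate 2 or luteolin replicate 2, and 8 and 10 without either array of the label of both.

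Quantile normalization gave 3 raised and 10 lowered with the gefitinib label, 1 raised and 18 lowered with the label of both, 11 for both against luteolin, 15 for both against gefitinib and 9 departures, and PSMB4 turned to -0.01 with the gefitinib label. The shares of all genes under it were not computed for the comparisons between labels or for the departures. Without the filter, 3 members were lowered with the gefitinib label, where 19.9% of all genes kept fell. With the label of both 1 was raised, where 18.6% rose. Without the filter 3 members departed, and the share of all genes was not computed. With only the groups compared, 1 rose and 4 fell with the label of both, where 18.8% and 11% of all genes kept did. Between that label and the luteolin and gefitinib labels 7 and 6 members differed, and the share of all genes was not computed. A 2-fold limit left 3 lowered with the luteolin label and 2 raised and 1 lowered with the gefitinib label. With the label of both it left 1 raised and 1 lowered. For luteolin against gefitinib labels it left 17, where 18.2% of all genes kept rose and 18.4% fell. For both against luteolin it left 6, where 11.3% rose and 9.81% fell. For both against gefitinib it left 2, where 17.3% rose and 9.78% fell. It left 2 departures, where 15.9% of all genes departed upward and 12.3% downward. With 0 h in place of DMSO, 1 rose with the luteolin label, where 16.4% of all genes kept did. The median of the constitutive subunits with that label was then -0.42 in place of -0.56, with 3 of them above 0. With the gefitinib label it was 0.46 in place of 0.34, and with the label of both 0.04 in place of -0.12. The methods' t-test, unadjusted, gave 10 raised with the gefitinib label, where 13.8% of all genes kept rose. With the label of both it gave 0 raised and 3 lowered, where 8.24% rose and 4.84% fell. It gave 6 and 7 for that label against luteolin and gefitinib, and 9 for DMSO against 0 h. The shares of all genes in those comparisons were not computed for this test. After adjustment it called 0 members in each comparison. It has no form for the departure from the sum.

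The treatments of the file names move each result to another drug. Under them luteolin had 3 raised and 9 lowered, where 25% and 16.3% of all genes kept were. Gefitinib had 0 and 18, where 14.3% and 11.8% were, and both drugs 16 and 5, where 32.8% and 22.3% were. Luteolin against gefitinib, which is then the label of both against the luteolin label, gave 19, where 23.5% of all genes rose and 18.4% fell. Departures were 27, but the share of all genes that departed was not computed, so this count is no result about the members. Signs were compared for the members given by array, where their change was called by label. With gefitinib they turned for PSMA7 (-0.36), PSMB4 (-0.39), PSMB10 (-0.74), PSMC3 (-0.92), PSMD4 (-0.16), PSME1 (-0.12) and PSMC3IP (-1.13). With luteolin they turned for PSMB10 (0.23), PSMD2 (0.05) and PSMC3IP (0.14), and with both drugs for PSMC3 (0.55). Members outside this list turned too. With gefitinib, 25 of the 31 constitutive subunits had an estimate above 0 by label, and all 31 had one at or below 0 by file name. Which treatment is right was not tested. The scan as a block was not run, since scans and slides coincide. The cause of the other differences was not tested. With 2 arrays per group, signal over background and the number of arrays limit what can be seen.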
